A study of Mus musculus with 4 samples.

Results

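The genes described here are the formative epiblast factors Fgf5, Otx2, Pou3f1, Grhl2 and Sall2 and the zinc-finger genes Zic1, Zic2, Zic4 and Zic5. They were chosen by name, and all 9 have a row among the 22266 genes of the expression table. Poly(A) RNA was sequenced from female mouse embryonic stem cells, line PGK12.1, grown on gelatin in serum and leukemia inhibitory factor. Controls and treated cells alike are the knock-in line mESC CBX2fl/fl-HaloTag, whose Cbx2 is floxed and joined to a HaloTag, and all 4 libraries are labelled batch 2. The EtOH group (n = 2, day 0, genotype Wildtype) received ethanol. The OHT group (n = 2, day 2, genotype Knockout) received 1.0 µM 4-hydroxytamoxifen for 48 hours to delete Cbx2, a chromodomain subunit of Polycomb repressive complex PRC1. None of the groups analysed here received the drug with Cbx2 intact, so the drug, the time and the deletion cannot be told apart. The labels do not state that replicates were separate cultures or how many clones the line comes from, so p-values cover only the spread between these libraries, which may be technical.

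Embryonic stem cells kept with serum and leukemia inhibitory factor lie mostly in the naive state, which resembles the epiblast before implantation. The formative state follows it. In passing there, cells lose naive factors, gain Fgf5, Otx2, Pou3f1 and Zic genes and become able to form the germ layers. Polycomb complexes are known to occupy CpG-rich promoters of many developmental regulators in stem cells.

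Promoter windows, 250 bases before to 50 after the start, were found in the RefSeq table (GRCm38.p6) for 6 of the 9 genes, with 10 windows in all. The stretches shown here lie before the start and outside annotated exons. They compare the CpG content of Zic5, which was expressed, with that of Zic1 and Fgf5, which were close to 0, and every CpG is in capitals. Zic5 is at chr14:122465678-122465908 (minus strand, 11 CpG in 231 bases), Zic1 at chr9:91365811-91366018 (minus strand, 26 CpG in 208 bases) and Fgf5 at chr5:98253934-98254183 (plus strand, 24 CpG in 250 bases).
Zic5: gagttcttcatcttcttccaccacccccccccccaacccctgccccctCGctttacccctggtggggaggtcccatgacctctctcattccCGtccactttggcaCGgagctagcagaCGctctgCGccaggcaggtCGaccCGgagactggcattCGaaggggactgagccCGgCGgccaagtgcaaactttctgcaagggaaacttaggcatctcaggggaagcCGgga
Zic1: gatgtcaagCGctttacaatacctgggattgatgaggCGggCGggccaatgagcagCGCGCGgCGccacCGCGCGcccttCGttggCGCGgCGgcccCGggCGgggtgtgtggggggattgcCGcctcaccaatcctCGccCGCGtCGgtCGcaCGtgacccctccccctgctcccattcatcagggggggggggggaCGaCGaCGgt
Fgf5: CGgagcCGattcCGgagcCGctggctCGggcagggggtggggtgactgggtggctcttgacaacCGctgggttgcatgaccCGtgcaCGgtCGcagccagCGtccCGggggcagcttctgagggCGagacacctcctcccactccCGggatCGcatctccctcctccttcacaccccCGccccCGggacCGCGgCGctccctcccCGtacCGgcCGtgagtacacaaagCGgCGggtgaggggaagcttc

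The whole windows of Zic1 and Fgf5 held 31 and 29 CpG, at the 89.4th and 87.1st percentile of the table's 32851 windows, whose median is 7. Zic5 held 15, at the 65.4th percentile. Zic4, whose level was also close to 0, held 8, fewer than Zic5. The 4 windows of Otx2 held 6 to 16 CpG and the 2 windows of Sall2 held 1 and 10. The OTX core TAATCC, searched on both strands, occurred once in the Otx2 window that starts at 48665060 on chromosome 14 and in no other window of these genes. It occurs in 7.06% of all windows. The octamer ATGCAAAT (1.74% of all windows) and the GRHL core AACCGGTT (0.146%) were found in none of the 10 windows. None of the 3 motifs contains another. A match is a description of these letters and not a binding site.

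Levels are in TPM, a length-corrected share of all transcripts, as the authors deposited it. Differences are fitted with limma on log2(TPM + 1), OHT minus EtOH, and p-values are adjusted by Benjamini-Hochberg over all 12029 genes tested. Cbx2, the targeted gene, read 2.29 and 2.71 TPM in the EtOH pair, against 0.749 and 1.14 TPM in the OHT pair, 37.7% of the EtOH mean, in the labelled direction (limma log2 fold change -0.85, SE 0.19, adjusted p = 0.265). Its mean of 1.72 TPM reached the 1 TPM required for a test only through the EtOH pair, as the OHT mean was 0.944 TPM. After removal of each library's trend with transcript length and GC content the log2 fold change of Cbx2 was -0.97 (SE 0.14, limma adjusted p = 0.0496). That setting called 159 of 12016 genes tested, against 5 as reported. All 8 markers of embryonic stem cell identity were expressed in every library, with Pou5f1 between 1856 and 2229 TPM. The OHT libraries differed from each other more than the EtOH libraries did (SD over genes of the log2 difference 0.35 against 0.18). Set against the EtOH mean, all tested genes had a median of -0.09 in OHT replicate 1, against 0.14 in replicate 2. The depth of each library is unknown, because TPM does not keep it.

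Over the 4 libraries the order of mean levels was Zic2 (30.3 TPM), Otx2 (28.0), Zic5 (13.6), Grhl2 (9.63), Pou3f1 (7.52), Sall2 (3.18), Fgf5 (0.580), Zic1 (0.276) and Zic4 (0.0490). Neighbours in that order whose libraries overlapped were Zic2 and Otx2, Zic5 and Grhl2, Grhl2 and Pou3f1, Fgf5 and Zic1, and Zic1 and Zic4. Every library of Otx2 lay above every library of Zic5, and likewise Pou3f1 above Sall2 and Sall2 above Fgf5. Within each of the 4 libraries Zic5 also stood above Grhl2, and Zic1 above Zic4. A mean of at least 1 TPM was required for a test, and 6 of the 9 reached it. Fgf5, Zic1 and Zic4 did not and are given as values only.

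**Figure D1:**
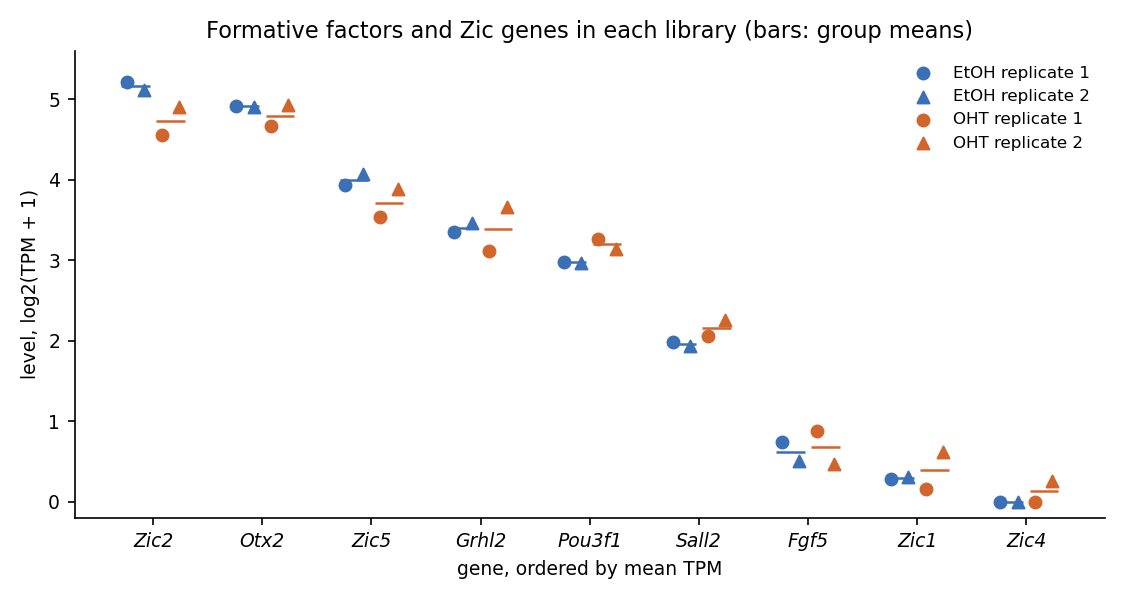
Level of each gene in each library as log2(TPM + 1), ordered by mean TPM, with EtOH in blue, OHT in orange, circles for replicate 1, triangles for replicate 2 and bars for group means of the 2 libraries. Zic2 and Zic5 lie lower and Pou3f1 and Sall2 higher in both OHT libraries, while Fgf5, Zic1 and Zic4 lie near 0.

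None of the 6 tested genes differed between the groups at an adjusted p under 0.05 (limma). Among all genes tested 0.00831% were higher and 0.0333% lower at that threshold, 5 genes in all, so a count of 0 among 6 is no result about these genes. At an unadjusted p under 0.05 stood 1 of the 6, Zic2, which was lower (lower in 4.46% of all tested genes, higher in 6.02%). The groups did not overlap for 4 of the 6, with OHT lower for Zic2 and Zic5 (as for 19.4% of all tested genes) and higher for Pou3f1 and Sall2 (as for 23.1%). With 2 against 2 libraries an exact permutation test cannot give a two-sided p under 0.333, so none was run.

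Fgf5 encodes a secreted growth factor and is the customary marker of cells leaving the naive state (ENSMUSG00000029337.3, GRCm38 chromosome 5, 98254184 to 98277030, plus strand). It read 0.678 and 0.414 TPM in the EtOH pair, against 0.841 and 0.386 TPM in the OHT pair. The OHT libraries were the highest and the lowest of the 4, and the groups overlapped. Its group means were 0.546 ± 0.187 TPM with EtOH and 0.614 ± 0.321 TPM with OHT (SD, n = 2 each), a difference smaller than either SD. Otx2 stood 28.9 to 76.4 times as high as Fgf5 in the same libraries, so the formative factors were not expressed at like levels in either group.

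Otx2 encodes a homeodomain factor that directs the naive to formative transition and later the forebrain (ENSMUSG00000021848.17, chromosome 14, 48657677 to 48673819, minus strand). It read 29.1 and 29.0 TPM in the EtOH pair, against 24.3 and 29.5 TPM in the OHT pair. The EtOH libraries were nearly alike, while 1 OHT library lay below them and the other above, so the groups overlapped. The log2 fold change was -0.11 (SE 0.15, 95% interval -0.48 to 0.25, limma adjusted p = 0.850). It was 0.02 without OHT replicate 1, a turn of direction, and its mean level was at the 63.2nd percentile of the genes tested. The annotated span of Otx2os1 overlaps it on the opposite strand and that of Gm49154 on the same strand, with 169 bases identical to an Otx2 transcript. Neither has a row in the table, and whether reads were shared was not tested.

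Pou3f1, also called Oct6, encodes a POU-domain factor of the formative and primed epiblast and of neural and Schwann cells (ENSMUSG00000090125.4, chromosome 4, 124656807 to 124660655, plus strand). It read 6.90 and 6.81 TPM in the EtOH pair, against 8.57 and 7.80 TPM in the OHT pair. Both OHT libraries were above both EtOH libraries, and the OHT mean was 119% of the EtOH mean. The log2 fold change of 0.23 (SE 0.17, 95% interval -0.19 to 0.64) did not pass (limma adjusted p = 0.715). After removal of each library's trend with transcript length and GC content it was 0.05 (SE 0.14). Pou3f1 has the highest GC content of the 9 genes by its longest transcript, 63.9%. It is the only gene of the 6 tested whose level was lower in OHT replicate 2 than in replicate 1. Zic2, with the next highest GC content, 59.9%, was higher in OHT replicate 2. On the same removal the log2 fold change of Zic2 went from -0.43 to -0.55. The part of GC content in these differences was not tested. The span of the antisense gene Gm2164 overlaps Pou3f1, as those of Gm16136 and Gm16137 overlap Grhl2. These have no row in the table, and shared reads were not tested for.

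Grhl2 encodes a Grainyhead-like factor that maintains epithelial genes when naive cells become formative (ENSMUSG00000022286.17, chromosome 15, 37233036 to 37363569, plus strand). It read 9.21 and 9.97 TPM in the EtOH pair, against 7.66 and 11.7 TPM in the OHT pair. The OHT libraries lay on either side of the EtOH pair, and the group means were 9.59 and 9.67 TPM. The log2 fold change was -0.01 (SE 0.23, 95% interval -0.57 to 0.54, limma adjusted p = 0.988), with -0.29 for OHT replicate 1 against 0.26 for replicate 2. Of the 6 tested genes it had the largest difference between OHT libraries, 0.55 on the log2 scale, where the median of all tested genes was 0.23. The direction turned without OHT replicate 1 (0.26) or EtOH replicate 2 (0.04).

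Sall2 encodes a Spalt-like zinc-finger factor of neural and eye development (ENSMUSG00000049532.12, chromosome 14, 52311172 to 52328762, minus strand). It read 2.96 and 2.82 TPM in the EtOH pair, against 3.16 and 3.77 TPM in the OHT pair. The lower OHT library was barely above the higher EtOH library, and the OHT mean was 120% of the EtOH mean. The log2 fold change was 0.20 (SE 0.18, 95% interval -0.24 to 0.63, limma adjusted p = 0.772), and 0.08 (SE 0.13) after removal of that trend. Sall2 stood lowest of the 6 tested, at the 16.1st percentile of mean level.

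The Zic genes encode related zinc-finger factors and lie in head-to-head pairs, with Zic1 beside Zic4 on chromosome 9 and Zic2 beside Zic5 on chromosome 14. Zic2 (ENSMUSG00000061524.9, 122475435 to 122479852, plus strand), a regulator of neural patterning that also binds enhancers in stem cells, and Zic5 (ENSMUSG00000041703.8, 122456795 to 122465677, minus strand), a regulator of neural crest, start 9.76 kb apart. Zic1 (ENSMUSG00000032368.15, 91358058 to 91365810, minus strand) and Zic4 (ENSMUSG00000036972.15, 91362413 to 91389348, plus strand), which act in the cerebellum, overlap by 3398 bases on opposite strands. The levels split by locus: the chromosome 14 pair was expressed and the chromosome 9 pair was not above 1 TPM in any library.

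Zic2 read 36.0 and 33.6 TPM in the EtOH pair, against 22.5 and 28.9 TPM in the OHT pair. The OHT pair lay wholly below the EtOH pair, and the group means were 34.8 ± 1.69 and 25.7 ± 4.57 TPM (SD, n = 2 each), so the OHT mean was 73.7% of the EtOH mean. The log2 fold change was -0.43 (SE 0.16, 95% interval -0.83 to -0.04). Its unadjusted limma p was 0.0371, at rank 1012 of the 12029 genes tested, and the adjusted p of 0.441 did not pass. The difference was larger in OHT replicate 1 (-0.61) than in OHT replicate 2 (-0.26). The median of all tested genes was -0.10 without OHT replicate 2 and 0.14 without OHT replicate 1. Without OHT replicate 2 the log2 fold change of Zic2 was -0.61, and without OHT replicate 1 it was -0.26. By construction these repeat the differences of the single OHT libraries and are no added check. In each of these fits the lone OHT library is taken to vary like the EtOH pair. After removal of the length and GC trend the log2 fold change of Zic2 was -0.55 (SE 0.10, limma adjusted p = 0.0775).

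Zic5 read 14.2 and 15.8 TPM in the EtOH pair, against 10.6 and 13.8 TPM in the OHT pair. The higher OHT library came close to the lower EtOH library without overlap, and the OHT mean was 81.2% of the EtOH mean. The log2 fold change was -0.29 (SE 0.19, 95% interval -0.75 to 0.17, limma adjusted p = 0.662). As for Zic2, the difference was larger in OHT replicate 1 (-0.47) than in replicate 2 (-0.11). No alternative that kept all 4 libraries called Zic5. The ratio of Zic2 to Zic5 TPM was 2.53 and 2.13 in the EtOH pair, against 2.13 and 2.09 in the OHT pair. A processed pseudogene on chromosome 11, Gm12241, is 98.9% identical to Zic5 over 726 bases and has no row of its own in the table, so reads shared with it may be counted for Zic5.

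Zic1 read 0.213 and 0.241 TPM in the EtOH pair, against 0.114 and 0.537 TPM in the OHT pair, and the OHT libraries were the lowest and the highest of the 4. Zic4 was listed at 0 in both EtOH libraries and in OHT replicate 1, and at 0.196 TPM in OHT replicate 2. The higher value of each gene was in OHT replicate 2, and no fold is given for Zic4. The spans of these genes overlap on opposite strands, and the protocols do not say whether strand was kept. Whether their exons overlap, and to which gene reads from such a stretch were assigned, was not tested. In this bulk RNA, fewer cells of a type and less RNA per cell cannot be told apart for any of these genes.

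Summed, Zic1, Zic2, Zic4 and Zic5 stood at 50.5 and 49.7 TPM in the EtOH pair, against 33.1 and 43.5 TPM in the OHT pair. Both OHT sums were lower, and nearly all of each sum came from Zic2 and Zic5.

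**Figure D2:**
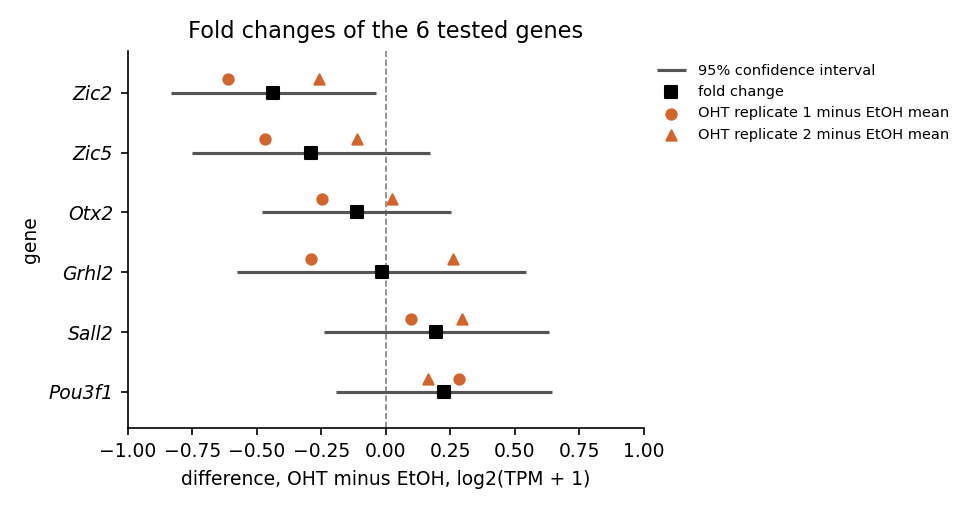
Difference between OHT and EtOH on the log2(TPM + 1) scale for the 6 tested genes, with the fold change as a square, its 95% interval as a line, and each OHT library against the EtOH mean as an orange symbol. The interval of Zic2 (-0.83 to -0.04) is the only one of the 6 that does not reach 0, and the OHT libraries lie on opposite sides of 0 for Otx2 and Grhl2.

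Other paralogs were looked at from a list set by name. Among 13, none passed, 8 were tested, and their median log2 fold change was 0.10, beside 0.02 for all tested genes and -0.06 for the 6 tested formative and Zic genes. Otx1, Crx, Pou3f2, Pou3f3 and Pou3f4 all stayed under 0.3 TPM in every library, so Otx2 and Pou3f1 were the expressed members of their small families. Grhl3 was more abundant than Grhl2, at 18.9 to 23.7 TPM over the 4 libraries, and Grhl1 less, at 3.58 to 4.82 TPM. Sall4 (119 to 145 TPM) and Sall1 (74.3 to 122 TPM) exceeded Sall2 in every library, and Sall3 read 4.96 to 8.02 TPM. Among other growth factors of the family Fgf4 read 135 to 162 TPM, Fgf15 13.2 to 16.8 TPM and Fgf8 0.583 to 1.31 TPM, all above or overlapping with Fgf5.

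Other formative and primed epiblast genes were taken from a list of 27, of which 24 were tested. None passed over all genes, 12 lay below 0 and 12 above, and their median log2 fold change was 0.02. The 5 with the smallest p were Lef1, Pim2, Dnmt3b, Utf1 and Sox4. Lef1, a nuclear effector of Wnt signalling, read 1.47 and 1.496 TPM in the EtOH pair, against 0.531 and 0.568 TPM in the OHT pair (log2 fold change -0.68, SE 0.15). Its mean of 1.02 TPM barely reached the level required for a test, and only through the EtOH pair. Dnmt3b, a de novo DNA methyltransferase gained by formative cells, read 74.4 and 77.9 TPM in the EtOH pair, against 45.2 and 62.6 TPM in the OHT pair (-0.51, SE 0.17). The kinase gene Pim2 (-0.47, SE 0.13) and the chromatin factor gene Utf1 (-0.24, SE 0.09) also read lower in both OHT libraries, and the transcription factor gene Sox4 read higher (0.41, SE 0.18). The limma adjusted p of these 5 lay between 0.267 and 0.497. After removal of the trend with length and GC content Dnmt3b (-0.60, limma adjusted p = 0.0453) and Pim2 (-0.53, limma adjusted p = 0.0480) passed, while Zic2 and Zic5 did not. That setting called 159 of 12016 genes tested, against 5 as reported.

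Naive pluripotency genes, the counterpart of the formative set, were all expressed enough to test. Of 16, none passed, and the groups did not overlap for 14, with OHT higher for 10 of these and lower for 4, where 23.1% of all tested genes lay above and 19.4% below. Their median log2 fold change was 0.21. Klf2 (0.42, SE 0.09), Tbx3 (0.67, SE 0.15) and Dppa5a (0.43, SE 0.12) read higher, and Dppa3 (-0.72, SE 0.14) and Fbxo15 (-0.30, SE 0.08) lower, these being the 5 smallest in p with limma adjusted p between 0.211 and 0.330. Of these 5, Tbx3 alone passed once the length and GC trend was removed (0.55, limma adjusted p = 0.0387), where 159 genes were called in all. The summed level of the naive list was 7883 and 7792 TPM in the EtOH pair, against 10468 and 9288 TPM in the OHT pair, of which Dppa5a alone gave 4733, 4612, 7089 and 5623 TPM. The 9 formative and Zic genes summed to 99.3 and 98.7 TPM in the EtOH pair, against 77.6 and 96.6 TPM in the OHT pair. The 27 other formative and primed epiblast genes summed to 1771 and 1781 TPM in the EtOH pair, against 1598 and 1816 TPM in the OHT pair, and overlapped.

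**Figure D3:**
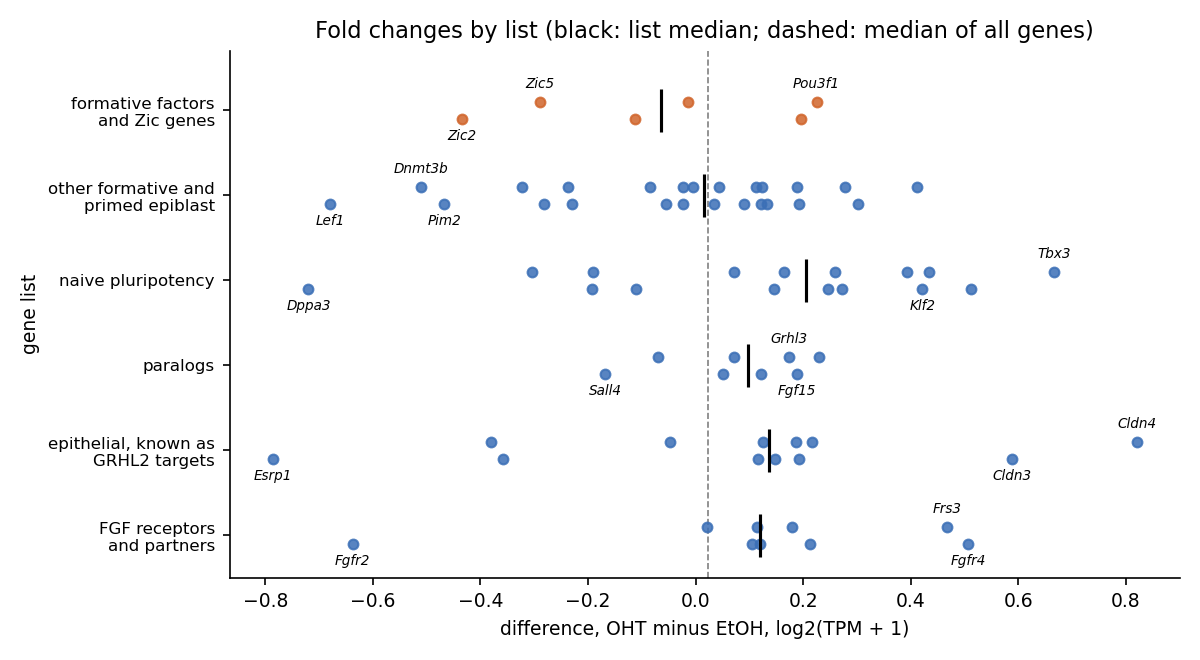
Difference between OHT and EtOH on the log2(TPM + 1) scale for every tested gene of each list, 1 point per gene, with the list median in black and the median of all tested genes (0.02) as a dashed line. The 3 genes with the smallest p of each list are named. The medians are -0.06 for the formative factors and Zic genes, 0.02 for the other formative and primed genes and 0.21 for the naive genes, and no point passed the adjusted threshold.

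Epithelial genes known as targets of GRHL2 lay on both sides of 0. Of 15 listed, 12 were tested and none passed, with 8 above 0, 4 below and a median of 0.14. Cldn4, a tight junction claudin, read 47.2 and 46.6 TPM in the EtOH pair, against 84.4 and 82.8 TPM in the OHT pair (log2 fold change 0.82, SE 0.11, limma adjusted p = 0.0995), and Cldn3 was higher too (0.59, SE 0.16). Esrp1, an epithelial splicing regulator, read 8.71 and 9.04 TPM in the EtOH pair, against 3.98 and 5.59 TPM in the OHT pair (-0.79, SE 0.21). Cldn4, Cldn3 and Esrp1 were named for having the smallest p of the list. That their differences exceed that of Grhl2 itself is therefore no result. Cldn4 (0.75, limma adjusted p = 0.0263) and Esrp1 (-0.81, limma adjusted p = 0.0446) passed once the length and GC trend was removed. In that setting 159 genes were called in all, and Grhl2 stood at -0.09 (SE 0.10).

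Of 10 FGF receptors and their partners 9 were tested and none passed (median 0.12). Fgfr2 read 9.43 and 9.04 TPM in the EtOH pair, against 4.76 and 6.51 TPM in the OHT pair (log2 fold change -0.64, SE 0.20). Fgfr4 (0.51, SE 0.18) and the adaptor gene Frs3 (0.47, SE 0.17) read higher, and the limma adjusted p of the 3 lay between 0.369 and 0.436. Fgfr4 read 0.786 and 0.531 TPM in the EtOH pair, against 1.53 and 1.18 TPM in the OHT pair. Its mean of 1.01 TPM barely reached the level required for a test, and only through the OHT pair.

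Markers of other cell types the cultures could hold were looked at as values. Of 9 neuroectoderm markers 5 were tested, Neurog2 was at 0 in all 4 libraries and Pax3, Fabp7 and Olig2 stayed under 0.2 TPM. The summed level was 221 and 219 TPM in the EtOH pair, against 183 and 194 TPM in the OHT pair, most of it Tubb3. Without Tubb3 the sums were 26.5 and 27.1 TPM with EtOH, 22.9 and 29.2 TPM with OHT, and overlapped. Of the 5 tested markers 3 lay above 0 and 2 below. Pax6 read 7.56 and 7.33 TPM in the EtOH pair, against 3.17 and 3.60 TPM in the OHT pair, while Sox1 read 3.10 and 2.62 TPM in the EtOH pair, against 5.28 and 6.77 TPM in the OHT pair. Pax6 passed once the length and GC trend was removed (-0.998, limma adjusted p = 0.0404), where 159 genes were called in all. The part of such cells in the levels of Zic2 and Zic5 was not tested. Of 9 mesendoderm markers 4 were tested (summed level 12.6 TPM or more with EtOH, 12.2 TPM or less with OHT). Despite the lower sum, 3 of the 4 lay above 0 and 1 below, with a median log2 fold change of 0.14. The marker below 0 was Evx1, with means of 5.79 TPM with EtOH and 3.01 TPM with OHT. Gsc had means of 2.55 TPM with EtOH and 4.16 TPM with OHT. Among 9 primitive endoderm markers 6 were tested (288 to 298 TPM with EtOH, 296 to 342 TPM with OHT, mostly Sparc). Among 8 trophoblast markers 6 were tested (72.5 to 72.9 TPM with EtOH, 80.1 to 85.2 TPM with OHT). None of either list passed. Of the tested primitive endoderm markers 3 lay above 0 and 3 below, with a median log2 fold change of 0.06. Of the tested trophoblast markers 5 lay above 0 and 1 below, with a median of 0.21. Gata6, Cdx2 and Elf5 stayed under 0.4 TPM in every library. Fibroblast markers summed to 15.8 to 16.5 TPM with EtOH and 20.6 to 26.3 TPM with OHT. Of 10, 3 were tested, Fbln2, Thy1 and Twist1, and none passed. All 3 lay above 0, with a median log2 fold change of 0.51. For each of these 3 both OHT libraries were above both EtOH libraries, as for 23.1% of all tested genes. Postn was at 0 in all 4 libraries. Col1a1 stayed under 0.8 TPM in each, with means of 0.317 TPM with EtOH and 0.668 TPM with OHT. The part of such cells was not tested.

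**Figure D4:**
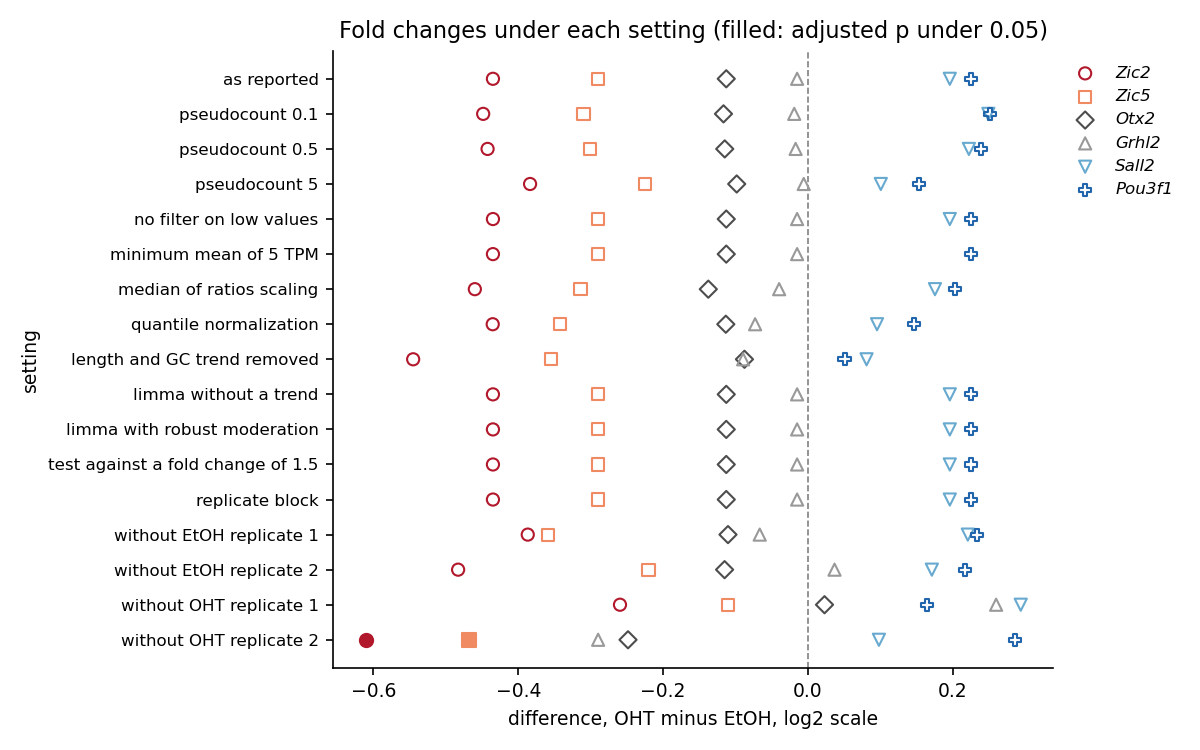
Difference between OHT and EtOH on the log2 scale for the 6 tested genes as reported and under each of 16 alternative settings, with filled symbols where the adjusted p is under 0.05. Zic2 and Zic5 lie below 0 and Sall2 and Pou3f1 above 0 in every setting that gave a value, and Otx2 and Grhl2 cross 0. The only filled symbols are Zic2 and Zic5 without OHT replicate 2. That fit holds a lone OHT library and calls far more of all genes than the fit as reported. The filled symbols are therefore no result about these genes.

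Across the alternatives Zic2 ranged from -0.61 to -0.26, Zic5 from -0.47 to -0.11, Pou3f1 from 0.05 to 0.29 and Sall2 from 0.08 to 0.29 on the log2 scale. Otx2 ranged from -0.25 to 0.02 and Grhl2 from -0.29 to 0.26. All extremes of Otx2, Grhl2, Zic2 and Zic5 came from leaving out an OHT library. By construction such a fit repeats the difference between the OHT library kept and the EtOH mean. The difference between the OHT libraries, replicate 2 minus replicate 1, was 0.35 for Zic2 and 0.36 for Zic5, against -0.10 and 0.14 between the EtOH libraries. The difference between the OHT libraries was thus larger than that between the groups for Zic5 and smaller for Zic2.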

How the data were processed

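Poly(A) RNA-seq of 4 mouse embryonic stem cell libraries was analysed from 1 deposited table of TPM. Per the submitters' processing notes the authors used Trim Galore, Salmon and GRCm38 (mm10), with no version or order stated. The handling of strand and sequence bias, and the annotation, were not given in the sources used here. A further 2 columns of values match no sample given and were left out. Columns were matched to groups by sample titles.

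A mean of 1 TPM or more was required (12029 of 22266 genes), and tests were run with limma 3.58.1 in R 4.3.3 on log2(TPM + 1), using eBayes moderation with a trend (two-sided), 2 residual and 4.01 prior degrees of freedom, adjusted by Benjamini-Hochberg over all of them. A fold change on this scale understates the change of low genes. The scripts were tested on simulated data, in which all 4 libraries had the spread of the EtOH pair. The OHT pair spread more widely than that. Only the rows of interest are printed. The genes and lists were chosen with earlier results of these data known, so no p was adjusted over a list. The genes named are the 9 members, every listed paralog, Cbx2, the 5 smallest in p of the other formative and the naive list and the 3 smallest of the epithelial and FGF receptor lists. Markers of other cell types are named as values. Some listed genes are not reported here and are left out of the lists' counts.

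GENCODE M21 gave positions, longest transcripts and their GC content (22213 genes matched without version). Copies at 95% identity over 50% of a transcript were searched for by blastn 2.17.0. Promoters are RefSeq's. The length and GC trend was removed per library by loess (span 0.3). There were 16 alternatives. Levels carry no depth, so no counting interval could be given.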

Additional observations from a re-analysis of the deposited data

How the results depend on the processing

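No tested gene of the 9 was called under any alternative that kept all 4 libraries. Without OHT replicate 2, a fit with a lone OHT library, Zic2 stood at -0.61 and Zic5 at -0.47. The count over all genes was 5 as reported (1 higher, 4 lower). It was 3 (0 higher) without a trend, with median of ratios scaling and with quantile normalization, 1 against a fold change of 1.5, 0 without a filter on low values (2228 at an unadjusted p under 0.05), 159 with the length and GC trend removed (92 higher, 67 lower), and 30 to 3104 with each library left out (43 and 30 without EtOH replicates 1 and 2, 3104 and 2648 without OHT replicates 1 and 2). With an OHT library left out the residual spread comes from the EtOH pair alone. Of the listed genes 0 were called as reported, 7 with the length and GC trend removed and 0 to 37 with each library left out (37 without OHT replicate 1, 31 without OHT replicate 2). Labels share replicate numbers 1 and 2, but nothing says that a number marks a shared culture. Deviations of same-numbered libraries correlated at 0.29 over genes. With the replicate block 474 genes, 14 listed genes and 0 of the 9 were called, and Zic2 had an adjusted p of 0.160. Of the 14, 7 were higher, Cldn4, Tbx3, Sox1, Dppa5a, Klf2, Tfcp2l1 and Esrrb. The 7 lower were Dppa3, Pax6, Lin28a, Dnmt3b, Esrp1, Lef1 and Evx1. The block fit had 1 residual degree of freedom and infinite prior degrees of freedom, so each gene's spread was taken from the trend over all genes. Signs turned for Otx2 without OHT replicate 1 (range -0.25 to 0.023 with each library left out) and for Grhl2 without EtOH replicate 2 (0.04) or OHT replicate 1 (range -0.29 to 0.26). The cause of these changes was not tested. Sall2 has no value at a minimum of 5 TPM.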
